A study of Homo sapiens with 6 samples.

Results

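The genes described here encode the kinases of the Hippo pathway and the proteins that bind and switch on these kinases. They were chosen by symbol: LATS1, LATS2, STK3, STK4, SAV1, MOB1A, MOB1B, NF2, MAP4K4 and WWC1, and all 10 were found among the 18126 gene symbols of each library. Messenger RNA was measured in 786-O, an established cell line of human clear cell renal carcinoma that lacks a functional VHL gene. By the labels, 3 libraries (Control) came from cells that received a control transfection and 3 (siTEAD4) from cells given an siRNA that targets TEAD4, a DNA-binding partner of YAP. No time after transfection and no siRNA sequence was given, and a single cell line was used for all 6 libraries. The column headers name these differently, with "Tead_Inhibitor" in all 3 siTEAD4 libraries and "Vehicle" in Control 2 and Control 3, so every direction given is that of the libraries labelled siTEAD4, and whether they received an siRNA or an inhibitor cannot be told apart.

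In the Hippo pathway the MST kinases, encoded by STK3 (MST2) and STK4 (MST1), bind the scaffold SAV1 and phosphorylate the LATS kinases and their MOB1 coactivators. MAP4K4 can phosphorylate LATS beside the MST kinases, and NF2 (merlin) and WWC1 (KIBRA) bring LATS to the cell membrane, where it is activated. Active LATS phosphorylates YAP and TAZ and keeps them out of the nucleus, away from the TEAD factors. LATS2 and NF2 are known transcriptional targets of YAP and TEAD, a negative feedback. All of this acts on proteins, whereas the values here are transcript levels.

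The targeted gene was examined first. Levels are in FPKM, fragments per kilobase scaled to the size of the library, and for TEAD4 they were 12.52, 16.99 and 11.28 in Control 1, 2 and 3 and 8.92, 7.65 and 7.52 in siTEAD4 1, 2 and 3. The siTEAD4 mean was 59.1% of the Control mean and the groups did not overlap. In limma, fitted on log2(FPKM + 1) over the 11411 genes that reached 1 FPKM in at least 3 libraries, the log2 fold change was -0.68 ± 0.143 (SE, n = 3 each; Benjamini-Hochberg adjusted p = 0.00521). Library depth is unknown, because FPKM values carry no read counts. The labelled cell type was checked on fixed markers: 10 of 10 renal tubule and carcinoma markers had a mean of at least 1 FPKM. They summed to 3658 to 4261 FPKM in Control and 3415 to 3519 FPKM in siTEAD4. Most of each sum came from 1 gene, VIM, with means of 3341 FPKM in Control and 3064 FPKM in siTEAD4. PAX8 had means of 76.6 FPKM in Control and 70.2 FPKM in siTEAD4, and CA9, the least abundant, 1.94 and 1.44 FPKM. Some of these markers differed more between the groups: the means were 154.8 and 29.4 FPKM for CDH6, 16.2 and 3.68 FPKM for CP, 143.6 and 82.8 FPKM for NNMT and 7.65 and 4.06 FPKM for PAX2. Of the leukocyte markers only CD68, a lysosomal protein gene, had a mean of at least 1 FPKM, and the 5 markers summed to 27.8 to 39.5 FPKM in Control and 20.5 to 22.5 FPKM in siTEAD4. PTPRC, which defines leukocytes, stayed at 0.15 to 0.42 FPKM. The 4 endothelial markers summed to 0.11 to 0.20 FPKM over all libraries, with CDH5 and VWF at or below 0.01 FPKM. The 4 fibroblast markers summed to 1.90 to 2.61 FPKM in Control and 0.73 to 0.93 FPKM in siTEAD4, almost all of it LUM, with DCN listed at 0 in every library. The part of these marker shifts in the results below was not tested, and in bulk RNA fewer cells of a type and less RNA per cell cannot be told apart.

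Of the 10 genes, MAP4K4, STK4, MOB1B and LATS2 rose in the siTEAD4 libraries, WWC1 fell, and LATS1, STK3, SAV1, MOB1A and NF2 did not pass the test. The rises were small, with siTEAD4 means at 132% to 138% of the Control means, and WWC1 stood at 65.8% of its Control mean. Among the 11411 genes tested, 44.9% had an adjusted p under 0.05 (26.1% higher and 18.8% lower), so 5 of 10 genes passing is close to the background and says nothing particular about these kinases and adaptors. Leaving out any 1 siTEAD4 library left 2 genes past the threshold, MAP4K4 and WWC1, and leaving out Control 3 left these and LATS2. Calls over all genes were then 3403 of 11353, 3476 of 11355 and 3467 of 11359 without siTEAD4 1, 2 and 3. They were 3594 of 11246 without Control 3. The median log2 fold change of the 10 genes was 0.18, against 0.09 over all genes tested. Higher genes made up 58.2% of all calls on the deposited values and 46.9% once all libraries were set to the same median. The groups did not overlap in 5 of the 10 genes, the same 5 that passed, beside 57.7% of all genes tested. Summed over the 10 genes, the level was 183.8, 157.7 and 157.3 FPKM in Control 1, 2 and 3 and 184.2, 180.5 and 188.9 FPKM in siTEAD4 1, 2 and 3, so Control 1 was near the siTEAD4 libraries and the other Control libraries were lower.

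**Figure D1:**
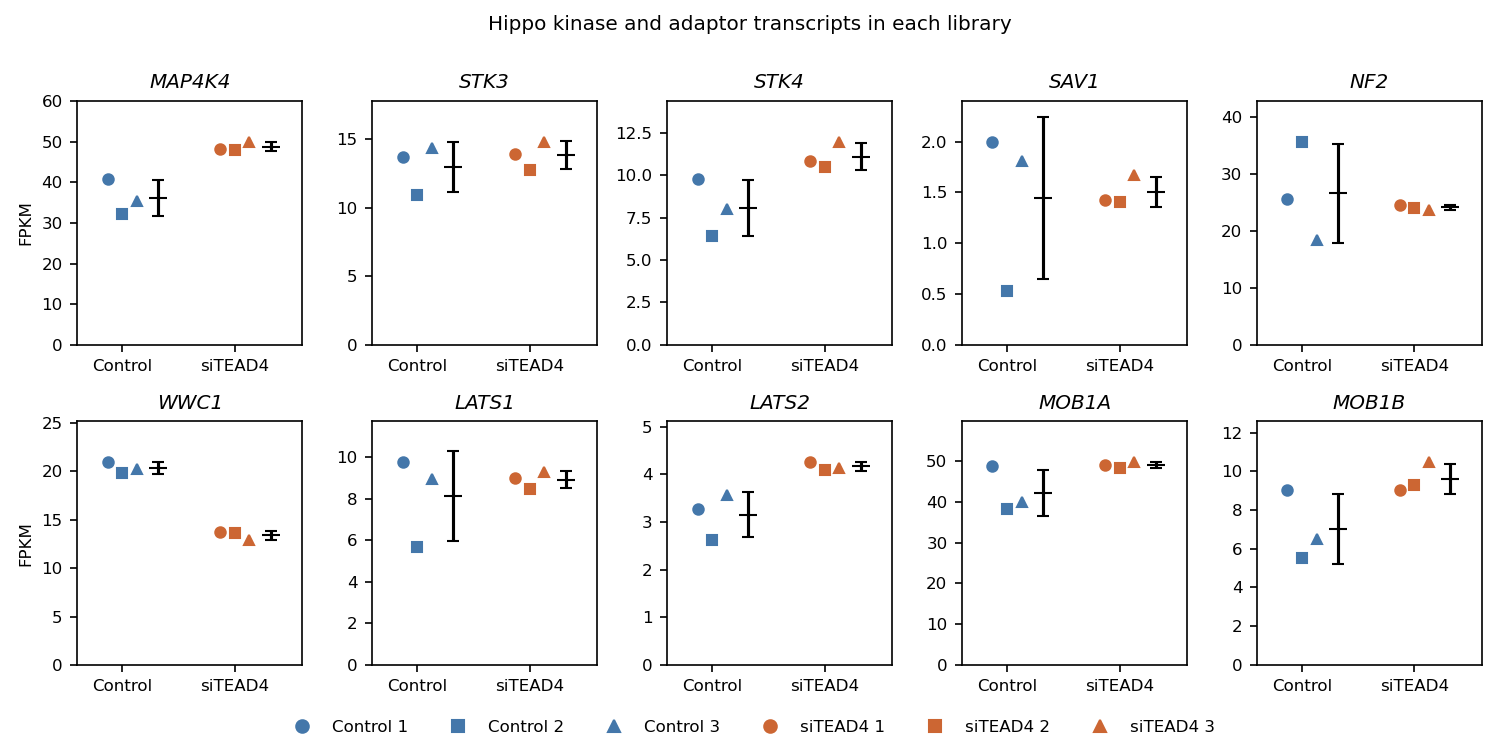
FPKM of each gene (y axis, from 0, with its own range) in the 3 Control and 3 siTEAD4 libraries (x axis); points are libraries, with a shape for each replicate number, and black bars are the mean ± SD of 3 libraries. The siTEAD4 points lie above every Control point for MAP4K4, STK4, LATS2 and MOB1B and below them for WWC1, and Control 2 is the lowest Control library in 9 of the 10 genes.

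In the Control libraries the coactivator gene MOB1A was the most abundant at 42.3 ± 5.67 FPKM (SD, n = 3), followed by MAP4K4 at 36.2 ± 4.38 and NF2 at 26.6 ± 8.66 FPKM. The ranges of MOB1A and MAP4K4 overlapped, as did those of MAP4K4 and NF2 and of NF2 and WWC1, although MOB1A was above MAP4K4 in each Control library. WWC1 (20.3 ± 0.593 FPKM) lay above STK3 (13.0 ± 1.83 FPKM) in every Control library, and STK3 above LATS1 (8.15 ± 2.16 FPKM). The ranges of LATS1, STK4 (8.07 ± 1.66 FPKM) and MOB1B (7.03 ± 1.80 FPKM) overlapped, although MOB1B was below the other two in each Control library. LATS2 at 3.15 ± 0.476 FPKM and SAV1 at 1.45 ± 0.800 FPKM were the lowest. The median over all genes tested was 11.8 FPKM in Control, and 5 of the 10 genes lay above it. In the siTEAD4 libraries MOB1A and MAP4K4 again overlapped at the top, at 49.1 ± 0.813 and 48.8 ± 1.09 FPKM. WWC1 was there at 13.4 ± 0.445 FPKM and overlapped STK3 at 13.9 ± 1.03 FPKM.

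MAP4K4 is a serine/threonine kinase of the STE20 group that acts beside the MST kinases upstream of LATS. The gene lies on chromosome 2, 101696850 to 101894689, on the plus strand (GRCh38, GENCODE release 29). Its levels were 40.94, 32.29 and 35.47 FPKM in Control 1, 2 and 3, and they were 48.28, 48.11 and 50.08 FPKM in siTEAD4 1, 2 and 3. Every siTEAD4 library was above every Control library, and the siTEAD4 values lay close together. On the log2 scale the rise was 0.43 ± 0.0955 (SE; 95% interval 0.21 to 0.64; limma adjusted p = 0.00691), and an exact two-sided permutation of the 3 against 3 means gave p = 0.1, the smallest it can give. MAP4K4 passed in all 18 settings, the value reported here and 17 alternatives, with fold changes of 0.35 to 0.52 on the log2 scale.

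The other kinases that act at this level, TAOK1, TAOK2, TAOK3, MAP4K2, MAP4K3, MAP4K5, MINK1 and TNIK, did not pass limma's adjusted p. Of all genes tested, 44.9% did. Among these 8, 1 (higher) had an unadjusted p under 0.05, and the median log2 fold change was 0.03. The related gene MAP4K3 was at 10.05 and 12.4 FPKM in Control and siTEAD4 on average (log2 fold change 0.29, adjusted p = 0.0879), and TNIK at 6.87 and 5.18 FPKM (-0.33, adjusted p = 0.0952). MAP4K1, a kinase of blood cells, was below the expression filter in both groups. Without Control 2, 1 of the 8 rose and 2 fell, beside 6547 of 11257 genes called in all. With the trend of each library with transcript length and GC content removed, 2 rose and 2 fell, beside 6688 of 11156.

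STK4 and STK3 encode the paralogous kinases MST1 and MST2. STK4 (chromosome 20, 44966474 to 45079959, plus strand) measured 9.75, 6.44 and 8.02 FPKM in Control 1, 2 and 3, against 10.83, 10.5 and 11.98 FPKM in siTEAD4 1, 2 and 3. The groups did not overlap, with Control 1 closest to the siTEAD4 libraries. Its log2 fold change of 0.43 ± 0.134 (SE; 95% interval 0.13 to 0.73) passed in limma with an adjusted p of 0.0284. The call ended without Control 3 (adjusted p = 0.084), without any 1 siTEAD4 library (0.0618 to 0.109), after a TMM-like scaling (0.0575) and with no expression filter (0.0608), while the fold change stayed between 0.30 and 0.56 in all settings. STK3 measured 13.7, 10.92 and 14.36 FPKM in Control, against 13.94, 12.78 and 14.83 FPKM in siTEAD4. The groups overlapped, with Control 2 the lowest and siTEAD4 3 the highest library, and the log2 fold change was 0.09 with a 95% interval of -0.17 to 0.35 (adjusted p = 0.533).

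SAV1, the scaffold that holds the MST kinase dimers together, was the least abundant of the 10 genes. The Control libraries listed it at 2, 0.53 and 1.81 FPKM (Control 1, 2 and 3), and the siTEAD4 libraries at 1.42, 1.41 and 1.67 FPKM (siTEAD4 1, 2 and 3). Control 2 was far below the other 5 libraries, and only 5 libraries reached 1 FPKM. The log2 fold change was 0.09 with a 95% interval of -0.42 to 0.60 (limma adjusted p = 0.764), an interval that leaves room for a change of either sign. Without Control 2 the sign turned, to -0.22 (adjusted p = 0.0668), without passing.

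Of the membrane adaptors, WWC1 passed the test and NF2 did not; the difference between them was not tested. WWC1, which encodes KIBRA, a scaffold with WW domains that binds LATS and NF2, measured 20.98, 19.81 and 20.23 FPKM in Control 1, 2 and 3, against 13.7, 13.59 and 12.88 FPKM in siTEAD4 1, 2 and 3. The Control libraries stood close together and well above all siTEAD4 libraries. No other of the 10 genes fell; WWC1 did so with a log2 fold change of -0.57 ± 0.0765 (SE; 95% interval -0.74 to -0.39; limma adjusted p = 0.000524; exact two-sided permutation p = 0.1). It passed in all 18 settings with values of -0.64 to -0.45. The gene lies on chromosome 5, 168291651 to 168472303, on the plus strand. NF2, which encodes merlin, a protein that links membrane and actin, measured 25.61, 35.64 and 18.4 FPKM in Control, against 24.59, 24.06 and 23.71 FPKM in siTEAD4. The siTEAD4 libraries lay within the range of the Control libraries, of which Control 2 was the highest and Control 3 the lowest. Its log2 fold change was -0.09 with a 95% interval of -0.52 to 0.35 (adjusted p = 0.741), and it moved to -0.31 without Control 3 (adjusted p = 0.127), to 0.14 without Control 2 (adjusted p = 0.291) and to 0.03 once the length and GC trends were taken out (adjusted p = 0.895).

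**Figure D2:**
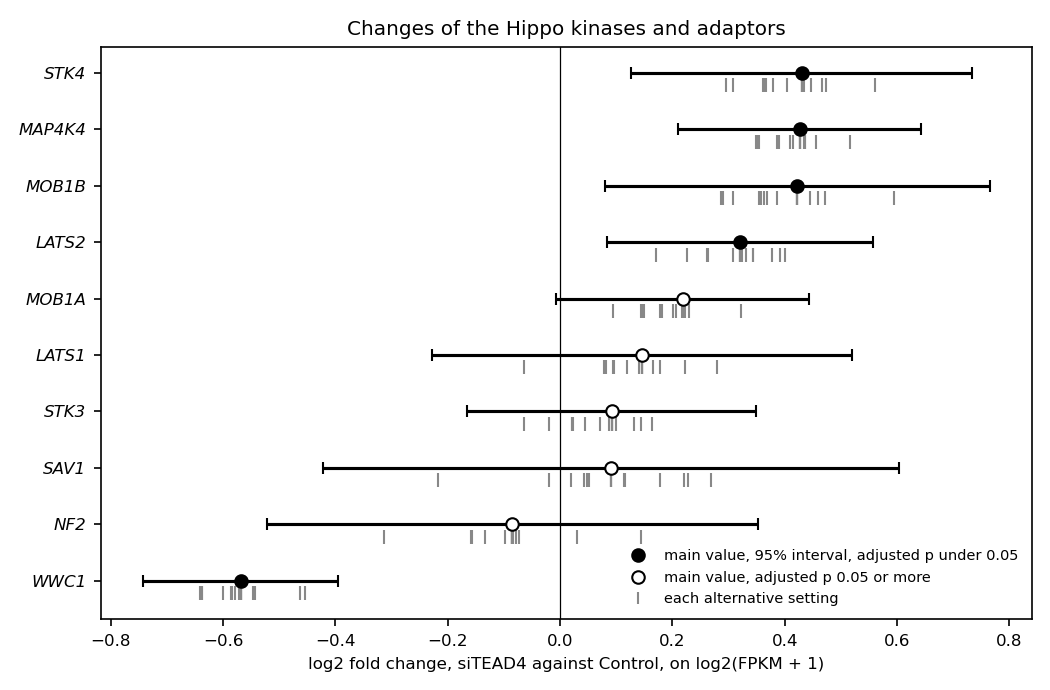
Log2 fold change of each gene, siTEAD4 against Control, on log2(FPKM + 1) (x axis); circles with bars are the limma values with 95% intervals, filled where the adjusted p was under 0.05, and grey ticks are the values under each alternative setting. WWC1 lies at -0.57 with all ticks below 0, MAP4K4, STK4, MOB1B and LATS2 lie at 0.32 to 0.43 with all ticks above 0, and the ticks of STK3, SAV1, NF2 and LATS1 fall on both sides of 0.

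The kinases LATS1 and LATS2 phosphorylate YAP and TAZ directly. LATS2 (chromosome 13, 20973032 to 21061547, minus strand) measured 3.27, 2.63 and 3.56 FPKM in Control 1, 2 and 3, against 4.26, 4.09 and 4.14 FPKM in siTEAD4 1, 2 and 3. All siTEAD4 libraries lay above all Control libraries. The log2 fold change was 0.32 ± 0.104 (SE; 95% interval 0.08 to 0.56; limma adjusted p = 0.0338), understated by the added 1 FPKM at such low levels. Leaving out any siTEAD4 library ended the call (adjusted p of 0.0908 to 0.111), as did rescaling to equal medians (0.0592), TMM-like scaling (0.0716) and testing without an expression filter (0.0687). Once the length and GC trends were taken out, the change was 0.38 (adjusted p = 0.00275). LATS1 measured 9.78, 5.7 and 8.96 FPKM in Control, against 8.98, 8.49 and 9.29 FPKM in siTEAD4. Control 2 was again the lowest, the groups overlapped, and the log2 fold change was 0.15 (95% interval -0.23 to 0.52; adjusted p = 0.493), turning to -0.06 without Control 2 (adjusted p = 0.478).

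MOB1A and MOB1B encode small coactivators that bind LATS once the MST kinases have phosphorylated them. MOB1B (chromosome 4, 70902326 to 71022449, plus strand) measured 9.03, 5.54 and 6.51 FPKM in Control 1, 2 and 3, against 9.05, 9.27 and 10.49 FPKM in siTEAD4 1, 2 and 3. The groups did not overlap, but Control 1 and siTEAD4 1 were almost level. The log2 fold change was 0.42 ± 0.151 (SE; 95% interval 0.08 to 0.76), at the edge of the threshold in limma (adjusted p = 0.0477). The call ended without any 1 library but Control 1 (adjusted p from 0.0588 to 0.158), after TMM-like scaling (0.0904), quantile normalization (0.0563) or rescaling to equal medians (0.0802), and with no filter (0.0977); it held once the length and GC trends were taken out (0.31, adjusted p = 0.0113). MOB1A measured 48.76, 38.17 and 39.95 FPKM in Control, against 49.16, 48.24 and 49.86 FPKM in siTEAD4. Control 1 stood with the siTEAD4 libraries and the other Control libraries below them. MOB1A did not pass (log2 fold change 0.22, 95% interval -0.01 to 0.44, adjusted p = 0.103), but it did without Control 1 (0.32, adjusted p = 0.00603).

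The promoters of LATS2, MOB1B and WWC1 are shown. LATS2 is known as a feedback target of YAP and TEAD and rose here, MOB1B also rose, and WWC1 fell. MAP4K4 and STK4 rose as well, and in more settings than MOB1B, but held no match in the windows searched and are not shown. The sequences are from RefSeq on GRCh38.p14, the 250 bases before the annotated start, 5′ to 3′ on the strand of the gene (chr13:21061587-21061836, minus strand, chr4:70902119-70902368, plus strand, and chr5:168291395-168291644, plus strand). Capitals mark matches to the motifs described below them.
LATS2: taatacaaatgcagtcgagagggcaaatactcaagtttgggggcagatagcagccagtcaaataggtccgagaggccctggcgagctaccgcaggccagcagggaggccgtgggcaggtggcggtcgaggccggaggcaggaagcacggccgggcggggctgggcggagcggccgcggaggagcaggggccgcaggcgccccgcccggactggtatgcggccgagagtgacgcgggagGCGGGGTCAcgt
MOB1B: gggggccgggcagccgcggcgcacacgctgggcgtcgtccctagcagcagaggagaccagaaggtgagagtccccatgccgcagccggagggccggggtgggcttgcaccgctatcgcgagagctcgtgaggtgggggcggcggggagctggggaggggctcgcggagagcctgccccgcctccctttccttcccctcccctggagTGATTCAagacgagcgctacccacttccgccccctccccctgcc
WWC1: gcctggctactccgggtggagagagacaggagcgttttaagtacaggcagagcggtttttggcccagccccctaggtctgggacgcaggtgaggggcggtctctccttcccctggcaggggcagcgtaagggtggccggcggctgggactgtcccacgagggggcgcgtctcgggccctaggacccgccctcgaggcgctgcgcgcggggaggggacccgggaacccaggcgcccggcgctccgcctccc
LATS2 at its start: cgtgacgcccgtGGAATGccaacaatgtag

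The last sequence (chr13:21061560-21061589, minus strand) spans the LATS2 start, and its capitals are a match to GGAATG, the core letters of the TEAD motif, which begins at transcribed base 10. The search covered promoters of 9 of the 10 genes, 13 promoters in all with alternative starts. STK3, on chromosome 8, was left out of the search. Windows of 300 bases (250 before and 50 after the start) were searched on both strands for GGAATG, for TGANTCA (AP-1) and for TGACNNNGC (NRF2), motifs that share no match here. GGAATG was found in 1 of the 9 genes, LATS2, and in 14.0% of all 35116 RefSeq promoters. TGANTCA was found in MOB1B, 44 bases before the start, and in LATS1, and in 7.71% of all promoters. TGACNNNGC was found in LATS2 on the opposite strand, 12 bases before the start, and in 13.4% of all promoters. WWC1, MAP4K4, STK4, SAV1, MOB1A and NF2 held none of these letters in the windows searched. A match is a description of the letters and not a site shown to be bound.

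The paralogous pairs allow a comparison within each library that does not depend on how libraries were scaled. STK4 made up 41.6%, 37.1% and 35.8% of the summed FPKM of STK3 and STK4 in Control 1, 2 and 3, and 43.7%, 45.1% and 44.7% in siTEAD4 1, 2 and 3. The siTEAD4 shares were all higher, by 6.33 percentage points on average (means 38.2 ± 3.02% and 44.5 ± 0.708%, SD, n = 3 each). The share of LATS2 in LATS1 and LATS2 was 25.1%, 31.6% and 28.4% in Control and 32.2%, 32.5% and 30.8% in siTEAD4. Control 2 lay among the siTEAD4 libraries, and the means differed by 3.48 points. The share of MOB1B in MOB1A and MOB1B was 15.6%, 12.7% and 14.0% in Control and 15.6%, 16.1% and 17.4% in siTEAD4, a difference of 2.25 points with Control 1 inside the siTEAD4 range. Exact two-sided permutation tests over 3 against 3 libraries gave p = 0.1 for STK4, the smallest possible, and p = 0.2 for LATS2 and for MOB1B, all 0.2 after Benjamini-Hochberg adjustment over the 3 pairs, so this design could not pass the threshold. When any 1 library was left out, the differences were 5.17 to 8.04 points for STK4, 1.83 to 5.09 for LATS2 and 1.53 to 3.01 for MOB1B. For STK4 the sign could not change, since its groups did not overlap. LATS1, STK3 and MOB1A remained the more abundant member of their pair in all 6 libraries. The members of a pair differ in length and GC content, as STK3 (longest transcript 3107 bases, 38.5% GC) and STK4 (6342 bases, 43.4% GC) do. With the trends with length and GC content removed from each library, the log2 fold changes were -0.065 for STK3 and 0.40 for STK4, 0.09 for LATS1 and 0.38 for LATS2, and 0.09 for MOB1A and 0.31 for MOB1B. None of the 10 genes shared a stretch of 50 bases with another of them in the longest GENCODE transcripts.

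**Figure D3:**
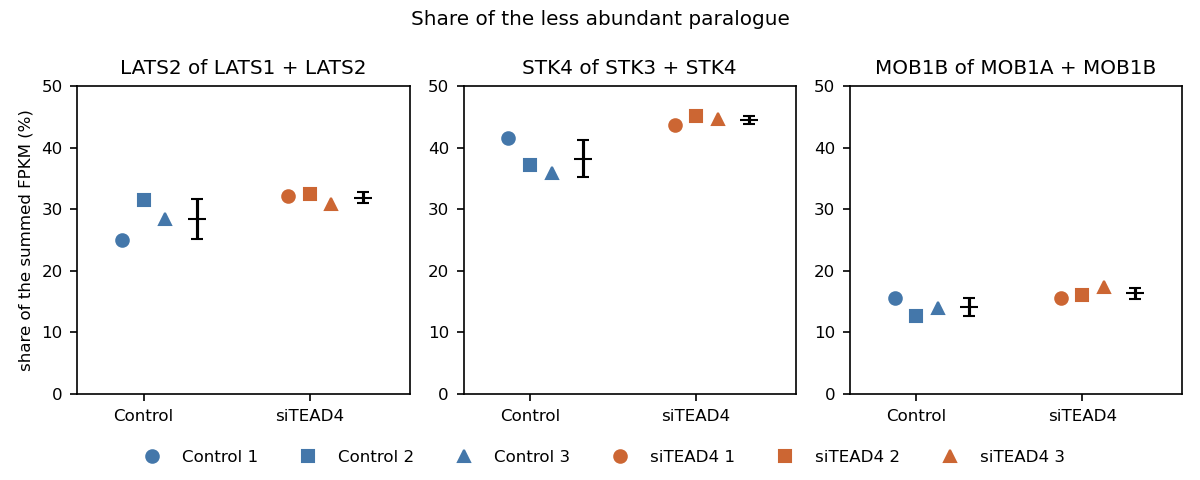
Share of the less abundant paralogue in the summed FPKM of its pair (y axis, percent, from 0) in each library of the Control and siTEAD4 groups (x axis); black bars are the mean ± SD of 3 libraries. Only for STK4 do the siTEAD4 shares, 43.7% to 45.1%, all lie above the Control shares, 35.8% to 41.6%.

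The 3 Control libraries differed more among themselves than the siTEAD4 libraries did. The SD was smaller in siTEAD4 for all 10 genes and for 83.2% of all genes tested. The median coefficient of variation of the 10 genes was 17.8% in Control and 3.92% in siTEAD4, against 12.7% and 4.72% over all genes tested. Control 2 was the lowest Control library for 9 of the 10 genes, all but NF2. Of all genes tested, 44.1% were lowest there and 42.3% highest. Control 1 was the highest Control library for 7 of the 10 genes and for 38.6% of all genes tested. Across 11156 genes with a GENCODE transcript, Control 2 minus the mean of the other Control libraries fell with transcript length (Spearman's rho -0.58). It rose with GC content (0.69). Control 1, taken the same way, ran in the opposite direction (rho 0.62 with length and -0.66 with GC content). These genes come from the same libraries and the values are descriptions. The median deviation of Control 2, on the log2(FPKM + 1) scale, was 0.25 in the fifth of genes with the shortest transcripts. It was -0.29 in the fifth with the longest. All 10 genes have longest transcripts of 3063 to 7640 bases. SAV1 deviated the most in Control 2, by -0.92, followed by NF2 at 0.69. When the trends with length and GC content were removed from each library, a setting chosen after seeing the data, MAP4K4, WWC1, STK4, LATS2 and MOB1B again passed, with adjusted p of 3.3e-05 (MAP4K4), 5.17e-05 (WWC1), 0.000625 (STK4), 0.00275 (LATS2) and 0.0113 (MOB1B). Calls over all genes also became more numerous under this setting, 6688 of 11156 against 5123 of 11411.

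**Figure D4:**
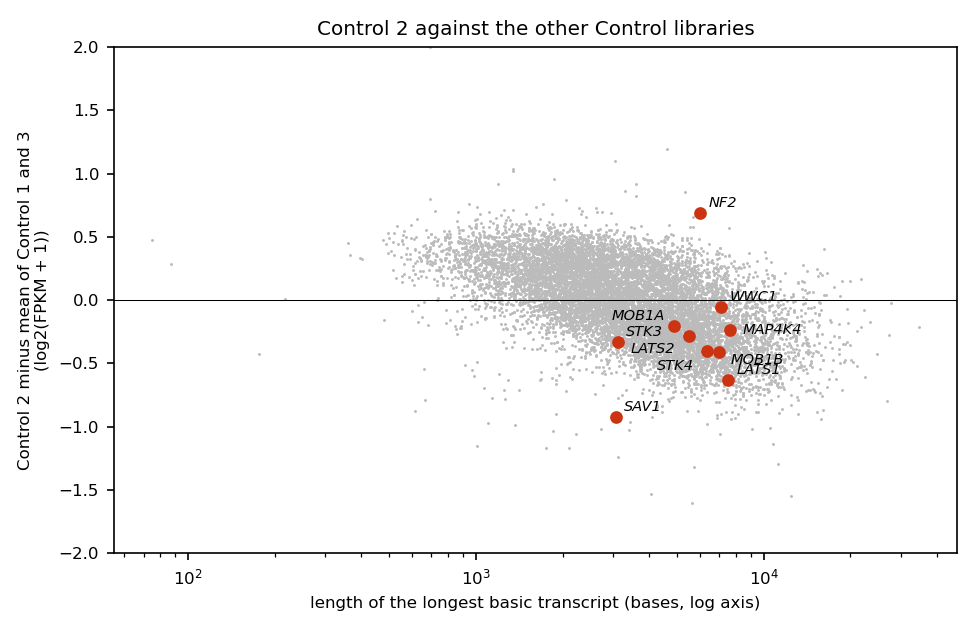
Difference between Control 2 and the mean of Control 1 and Control 3 on log2(FPKM + 1) (y axis) against the length of the longest transcript (x axis, log scale) for 11156 tested genes (grey; 3 lie outside the plotted range) and the 10 kinases and adaptors (red). The grey cloud slopes down with length, 9 of the red points lie below 0, and NF2 lies at 0.69.

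Overlapping genes limit some of these values, since the use of strand in counting is not given in the sources used here. LATS2 holds the antisense gene LATS2-AS1, LATS1 overlaps the antisense gene AL358852.1, SAV1 overlaps ATL1 on the other strand, and MOB1B overlaps DCK on the same strand. In SAV1 8.53% of the stretches of 50 bases also occur in another annotated gene, and in the remaining genes 0 to 4.83%.

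The rest of the pathway was described by lists of 76 other genes grouped by role, of which 71 were tested. By limma 20 rose and 6 fell, 36.6% of the 71 beside 44.9% of all genes, with a median log2 fold change of 0.13. The falls include TEAD4, the targeted gene, and FAT4, and the rises include SFN. FAT4 and SFN each passed the expression filter only through the group where they were higher. Without siTEAD4 1 the numbers were 12 and 4, beside 3403 of 11353 genes called in all, and without siTEAD4 3 they were 12 and 5, beside 3467 of 11359. With the length and GC trends removed they were 29 and 10, beside 6688 of 11156. Among 15 tested junction, polarity and membrane scaffolds, 5 fell, FAT4 among them, and 1 rose, 40% called beside 44.9% of all genes. FAT1, a giant protocadherin, went from 15.6 ± 4.52 to 3.30 ± 0.0839 FPKM (SD, n = 3; log2 fold change -1.91), CRB3, an apical polarity protein, from 4.68 ± 1.54 to 1.49 ± 0.175 FPKM (-1.15), and FAT4, another protocadherin, from 1.72 ± 0.503 to 0.780 ± 0.0900 FPKM (-0.59). FAT4 passed the expression filter only through the Control libraries. FRMD6, a FERM domain protein related to NF2 and named after its value was seen as the only rise, went from 20.0 ± 3.28 to 29.7 ± 1.03 FPKM (0.56, adjusted p = 0.00471). The falls numbered 3 of 14 without Control 3, where FAT4 was no longer tested, beside 1539 of 11246 genes lower in all. They numbered 3 of 15 without siTEAD4 1, beside 1617 of 11353.

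Among ligases and LIM proteins that restrain LATS, 5 of 7 tested rose and none fell in limma (also 5 and 0 at an unadjusted p under 0.05), beside 26.1% higher and 18.8% lower of all genes, with a median log2 fold change of 0.49. LIMD1, a LIM protein that binds LATS, went from 5.44 ± 0.641 to 8.95 ± 0.269 FPKM (SD, n = 3; log2 fold change 0.63). The ubiquitin ligase genes WWP1 (0.57) and ITCH (0.50) rose, the latter not without siTEAD4 1 (adjusted p = 0.0558) or siTEAD4 3 (0.06). The number of rises was 3 of 7 without siTEAD4 1, beside 1786 of 11353 genes higher in all. It was also 3 of 7 without siTEAD4 3, beside 1851 of 11359. AJUBA, a relative of LIMD1, did not pass, with means of 52.7 FPKM in Control and 53.1 FPKM in siTEAD4 (0.01, adjusted p = 0.932).

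The next list held the STRIPAK phosphatase complex, which dephosphorylates the MST kinases, and partners of these kinases. In it 6 of 19 rose and none fell (8 and 1 at an unadjusted p under 0.05). That was 31.6% called, beside 44.9% of all genes tested (26.1% higher and 18.8% lower). STRIP2 went from 5.76 ± 0.337 to 8.81 ± 0.386 FPKM (log2 fold change 0.54; SD, n = 3), MOB4 from 10.5 ± 0.430 to 15.4 ± 2.49 FPKM (0.50) and SIKE1 from 12.2 ± 1.82 to 16.9 ± 0.777 FPKM (0.45), all subunits of that complex. SIKE1 did not pass without siTEAD4 1 (adjusted p = 0.0569). The rises numbered 4 without Control 3, beside 2055 of 11246 genes higher in all. They numbered 2, 3 and 4 without siTEAD4 1, 2 and 3, beside 1786 of 11353, 1855 of 11355 and 1851 of 11359. After TMM-like scaling they numbered 4, beside 2172 of 11411. The NDR kinase and other MOB genes rose in 2 of 5 cases, MOB3A (0.55) and MOB3C (0.53), and fell in none. At an unadjusted p under 0.05 the counts were 3 and 0. The share called was 40%, beside the same 44.9% of all genes. Without Control 2, 4 rose, beside 6547 of 11257 genes called in all. Without Control 1, 3 rose, beside 5718 of 11245. With the length and GC trends removed, 4 rose, beside 6688 of 11156.

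Genes that act on phosphorylated YAP and TAZ rose in 6 of 11 cases and fell in none (also 6 and 0 at an unadjusted p under 0.05). That was 54.5% called, all higher, beside 44.9% of all genes called and 26.1% higher. YWHAG, a phosphoserine-binding adaptor protein, went from 114.8 ± 21.3 to 196.7 ± 1.19 FPKM (SD, n = 3; log2 fold change 0.79), and CSNK1E, a casein kinase, from 48.2 ± 3.35 to 68.2 ± 1.57 FPKM (0.49). SFN, of the same adaptor family as YWHAG, went from 0.627 ± 0.243 to 1.30 ± 0.225 FPKM. It passed the filter only through the siTEAD4 libraries and is counted among the 6 rises. The rises numbered 4 of 11 without Control 3, beside 2055 of 11246 genes higher in all. Without siTEAD4 1, 2 and 3 they numbered 4, 3 and 2 of the 10 genes then tested, with SFN no longer tested. In these 3 fits 1786 of 11353, 1855 of 11355 and 1851 of 11359 genes were higher in all. Among the 6 effector genes tested, TEAD4, the targeted gene, fell and none rose (2 lower and 0 higher at an unadjusted p under 0.05). That was 16.7% called, beside 44.9% of all genes. The kinases' substrate genes YAP1 (0.03, adjusted p = 0.886) and WWTR1 (0.16, adjusted p = 0.174) did not pass. Without Control 1, 1 rose and 2 fell, beside 5718 of 11245 genes called in all. The falls also numbered 2 without Control 2, beside 6547 of 11257, with TEAD1 past the threshold (-0.59, limma adjusted p = 0.0002). They numbered 2 after rescaling to equal medians (beside 4627 of 11411) and TMM-like scaling (beside 4671 of 11411), where TEAD3 passed. With the length and GC trends removed they numbered 2, beside 6688 of 11156. With no filter they numbered 2 of 7, beside 5007 of 17283.

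**Figure D5:**
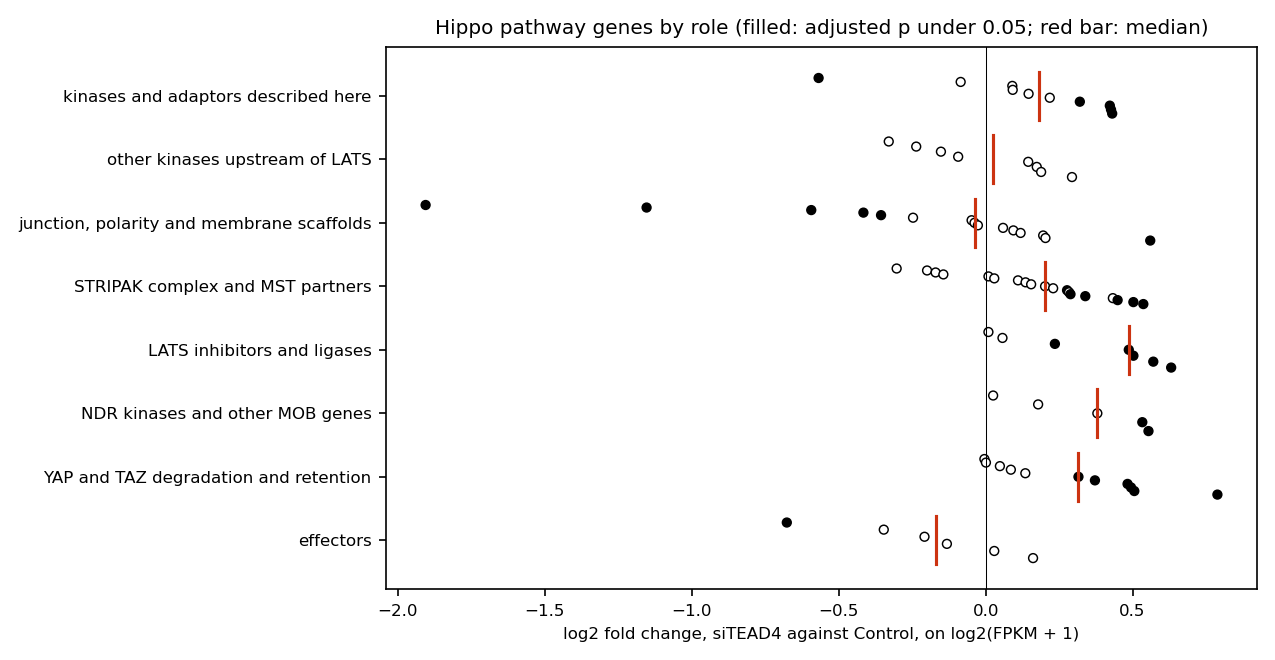
Log2 fold change, siTEAD4 against Control, on log2(FPKM + 1) (x axis) of each tested gene of the pathway by role (rows); filled points passed an adjusted p of 0.05 and red bars are row medians. The 10 kinases and adaptors have a median of 0.18, and the scaffolds extend lowest, to -1.91 for FAT1.

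Across all genes tested, the profiles most like that of STK4 were those of ZNF507 and SMC6, with root mean square distances of 0.0223 and 0.0269 between log2(FPKM + 1) profiles centred over the 6 libraries. STK4 was taken as the gene with the highest fitted fold change, but MAP4K4 (0.43) and MOB1B (0.42) differed from it by less than the SE, and their order changed under other settings. For WWC1, the only fall, they were EFHB (0.0210) and PIGV (0.0249).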

How the data were processed

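The authors deposited 1 table per library of gene symbols and FPKM, with up to 2 decimals; per the file headers the unit is FPKM in 5 tables, and Control 1, which names no unit, has the same symbols and range of values. Reads were placed on GRCh38, per the submitters' processing notes. How they were aligned, counted and annotated, and whether strand was used, was not given in the sources used here. Since separate cultures are not stated, p-values cover the spread among these libraries only, and that spread may be technical.

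All 11411 genes reaching 1 FPKM in 3 or more of the 6 libraries entered limma 3.58.1 (R 4.3.3) as log2(FPKM + 1), with group as the only term and eBayes moderation along the mean-variance trend. The p-values were Benjamini-Hochberg adjusted over these genes, with calls under 0.05. This scale understates the changes of low genes. The fit was tested on simulated data. Single values were compared by exact permutation (scipy 1.17.1). Genes and lists were chosen with earlier results of these data known. From each list up to 3 called genes with the largest change were named, and the other listed genes given with values were chosen after their values were seen. The alternatives comprised a replicate block, leave-one-out fits, 3 rescalings, 2 filters, pseudocounts of 0.1 and 5, and 2 variance models. After seeing the data, the dependence of each library on transcript length and GC percent (GENCODE release 29, longest basic transcript) was also removed, by natural splines of 5 df each.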

Additional observations from a re-analysis of the deposited data

How the results depend on the processing

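Across all genes, 5123 passed; the number was 3403 to 6547 when 1 library was left out, lowest without siTEAD4 1. Among the 10 kinases and adaptors 5 passed; the number was 2 to 6 when 1 library was left out (2 without any siTEAD4 library, 3 without Control 3), 3 after rescaling to equal medians, 2 after TMM-like scaling and 2 with no expression filter, where 17283 genes shared the adjustment. Calls over all genes were 3594 of 11246 without Control 3 and 4627 of 11411 after rescaling to equal medians. They were 4671 of 11411 after TMM-like scaling and 5007 of 17283 with no filter. MAP4K4 and WWC1 passed in all settings. Of the values of single genes under the alternatives, 146 kept their side of the threshold, 21 lost a call and 1 gained one, and none that was called changed sign. SAV1 and LATS2 could not be tested under the filter of 5 FPKM. The paralogue shares differed by 5.17 to 8.04 points for STK4, 1.83 to 5.09 for LATS2 and 1.53 to 3.01 for MOB1B when 1 library was left out. Libraries with the same replicate number did not deviate together (correlations of -0.16, 0.27 and 0.09 over genes), so the number was not taken as a pairing; with the replicate block 5180 genes passed, among them 5 of the 10. FPKM keep no read counts, so the depth behind the low values of SAV1 and LATS2 is unknown.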
